A study of Homo sapiens with 2 samples.

Results

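The genes described here build the machinery that holds, compacts and separates chromosomes at mitosis. They were chosen by name alone. A probe set was a member when its platform-annotation symbol belonged to the centromere (CENP), SKA, BUB, MAD, polo-like kinase (PLK), Aurora kinase, NEK kinase, CDCA, SMC, STAG or anaphase-promoting complex (ANAPC) families, or was that of a single named gene such as NDC80, TTK, CDC20, TOP2A or MKI67. The names matched 94 genes of the 13864 named genes in the series, each read by 1 probe set. A further 18 symbols that the rule would take in, among them the NCAP genes, NUF2, CENPB, CENPS and NEK1, were annotated to no probe set. These were not analysed. The rule reads names and no measured value, although it was drawn up with earlier results of these data known. Detection required the brighter of a gene's 2 values to reach the median of its own array, and 81 of the 94 members and 7081 of all named genes met this rule.

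Expression was measured in PC3 cells, a line from a human prostate cancer that grows without androgen. One culture stably overexpressed miR-95 and the other stably overexpressed a control microRNA. Both were grown in the same serum-containing medium, and the labels give no promoter, clone number or passage for either line. Each group held 1 array, so no value has a replicate error, a test or a p-value, and each statement describes these 2 arrays.

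At mitosis the centromere protein network anchors the kinetochore on a chromatin domain marked by the histone variant CENP-A, and the NDC80 and SKA complexes grip spindle microtubules. Unattached kinetochores assemble a checkpoint inhibitor from MAD2, BUBR1, BUB3 and CDC20, which holds back the anaphase-promoting complex (APC/C) until all chromosomes are attached. The APC/C then marks securin and cyclin B for destruction, and separase opens the cohesin rings that keep sister chromatids together, while condensin keeps the chromosomes compact. Many of these genes are transcribed mainly in late S, G2 and M phase, so their summed signal in a culture also follows the fraction of cells in those phases. In bulk RNA, fewer cells in a phase and less RNA per cell cannot be told apart.

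The labels name the overexpressed microRNA only as miR-95. Both mature arms are shown because the labels do not say which arm the construct yields. The RefSeq sequences (GRCh38.p14) are written 5′ to 3′, with the seed (bases 2 to 8) in capitals.
hsa-miR-95-3p: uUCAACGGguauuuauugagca
hsa-miR-95-5p: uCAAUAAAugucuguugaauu

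The arrays were close to each other. Across the 94 members the deposited log2 values had a Pearson correlation of 0.995, against 0.996 over all 23641 probe sets. Before differences were taken, each array was centred on its median over named genes, which was 7.495 for miR-95 and 7.46 for control. This lowered every miR-95 minus control difference by 0.035 relative to the deposited values. Levels below are the deposited log2 values, and differences and folds are after centring. Among the 56 detected genes with exactly 2 probe sets, the disagreement between probe sets corresponded to a spread of 0.126 for a single difference, which holds no variation between cultures. Of the epithelial markers KRT8, KRT18, KRT19 and EPCAM, 4 of 4 measured were detected, with levels of 7.81 to 9.83 in miR-95 cells and 7.86 to 9.65 in control cells. The androgen-driven prostate genes KLK2 and KLK3 were not detected, as was the case for DCN, LUM, CD14 and VWF, the measured markers of fibroblasts, leukocytes and endothelium. LUM, which encodes the matrix protein lumican, nevertheless had 6.04 in miR-95 cells and 7.33 in control cells, a difference of -1.325 and larger than that of any member, while DCN was at 2.76 with miR-95 and 2.90 in the control. The part of such cells in the members' results was not tested.

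The chromosome segregation genes were mostly slightly lower in the miR-95 cells. The median difference of the 81 detected members was -0.075, and that of all 7081 detected genes was -0.035. A negative difference was found in 61 members (75.3%), against 59.4% of all detected genes. At least 1.2-fold lower were 13 members (16.0%), a limit passed by 8.45% of all detected genes, and 1 member (1.23%) was at least 1.2-fold higher, against 5.48%. With the values as deposited, without centring, 53 members were negative, 9 were at least 1.2-fold lower and 2 were at least 1.2-fold higher. Over all detected genes that setting gave 48.0% negative, 6.07% lower and 7.09% higher. Only CENPK was at least 1.5-fold lower, where the background was 0.861%, and 0 members were 1.5-fold higher, where it was 0.395%. Apart from CENPK, the lower members differed by less than 1.5-fold.

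**Figure D1:**
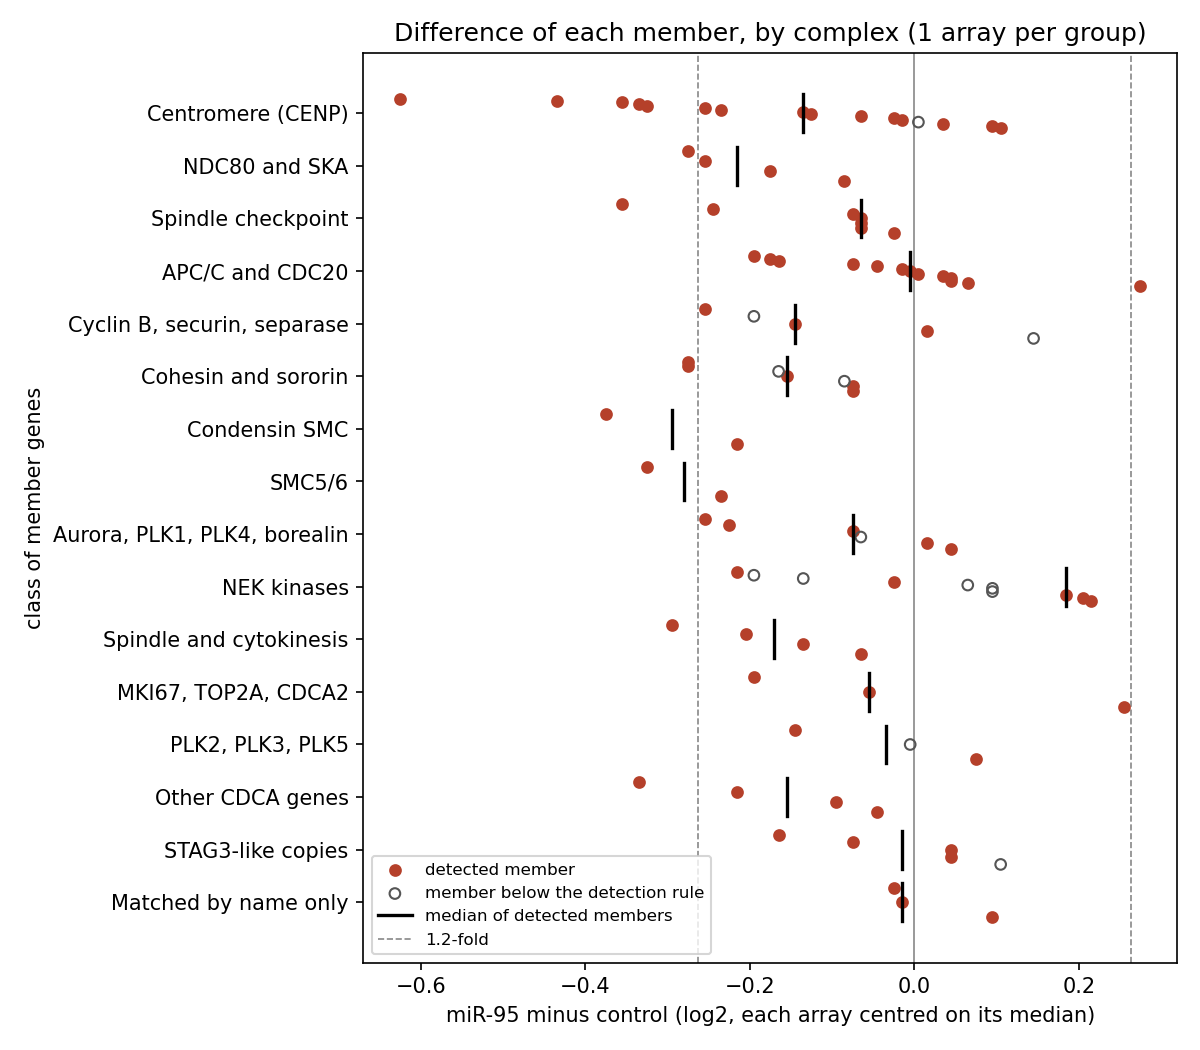
Difference of each of the 94 members on the horizontal axis (miR-95 minus control, log2, after centring), with 1 row for each class of genes on the vertical axis. Filled points are the 81 detected members, open points the 13 below the detection rule, black bars the median of a class's detected members and dashed lines the 1.2-fold limits. The centromere row reaches furthest to the left, to -0.625, the APC/C row is spread around 0, and every point of the NDC80 and SKA, cohesin, condensin, SMC5/6 and spindle rows lies left of 0. The checkpoint row also does so with this centring, but MAD2L1BP is above 0 with the values as deposited.

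Centromere proteins held the member with the lowest difference and 5 of the 13 that were at least 1.2-fold lower. Of 16 measured, 15 were detected, 12 with negative and 3 with positive differences (median -0.135), a split of 10 to 5 with the values as deposited, where CENPH and CENPN were above 0. CENPK, a subunit of the CENP-H/I/K/M module that links centromeric chromatin to the outer kinetochore, had a level of 8.17 in miR-95 cells and 8.76 in control cells. It was 1.54-fold lower, with 40 of the 7081 detected genes below it. CENPL, which pairs with CENPN in binding CENP-A nucleosomes, read 9.05 in miR-95 cells and 9.45 in control cells and was 1.35-fold lower. CENPW, a histone-fold protein that pairs with CENPT, read 7.84 with miR-95 and 8.16 with the control microRNA, 1.28-fold lower. These 3 genes belong to 3 different modules of the inner kinetochore.

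The module formed by CENPO, CENPP, CENPQ and CENPU had 4 of 4 measured subunits negative, with a median of -0.29. CENPQ read 9.41 in miR-95 cells and 9.71 in control cells, and CENPU read 9.56 in miR-95 cells and 9.85 in control cells. They were lower by nearly the same amount, 1.26-fold and 1.25-fold, and their proteins bind each other. CENPP differed by -0.255 and CENPO by -0.125. The remaining subunit of this module, CENP-R, is encoded by ITGB3BP, which the name rule did not take in. It read 7.44 in miR-95 cells and 7.63 in control cells, with the miR-95 value below that array's median, and differed by -0.225.

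Partners within the other modules did not read alike. CENPH, which binds CENPK directly, had 8.19 in miR-95 cells and 8.18 in control cells, a difference of -0.025 against -0.625 for CENPK. CENPN differed by -0.015 against -0.435 for its partner CENPL, and CENPT by -0.065 against -0.355 for CENPW. The other subunits of the CENP-H/I/K/M module, CENPI and CENPM, differed by -0.235 and -0.135. Thus 3 of these pairs each combined a member past 1.2-fold with one near 0.

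CENPA, CENPC and CENPX were on the other side of 0, under each centring. CENPA, the centromeric histone H3 variant, had 10.15 with miR-95 and 10.01 with the control, a difference of 0.105. CENPC, which binds CENP-A nucleosomes and the outer kinetochore, had 7.90 in miR-95 cells and 7.77 in control cells and differed by 0.095. CENPX, a histone-fold protein that also acts in Fanconi anaemia repair, differed by 0.035. All 3 lay within the 0.126 spread between probe sets. CENPV was below the detection rule (6.28 with miR-95, 6.24 in the control).

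**Figure D2:**
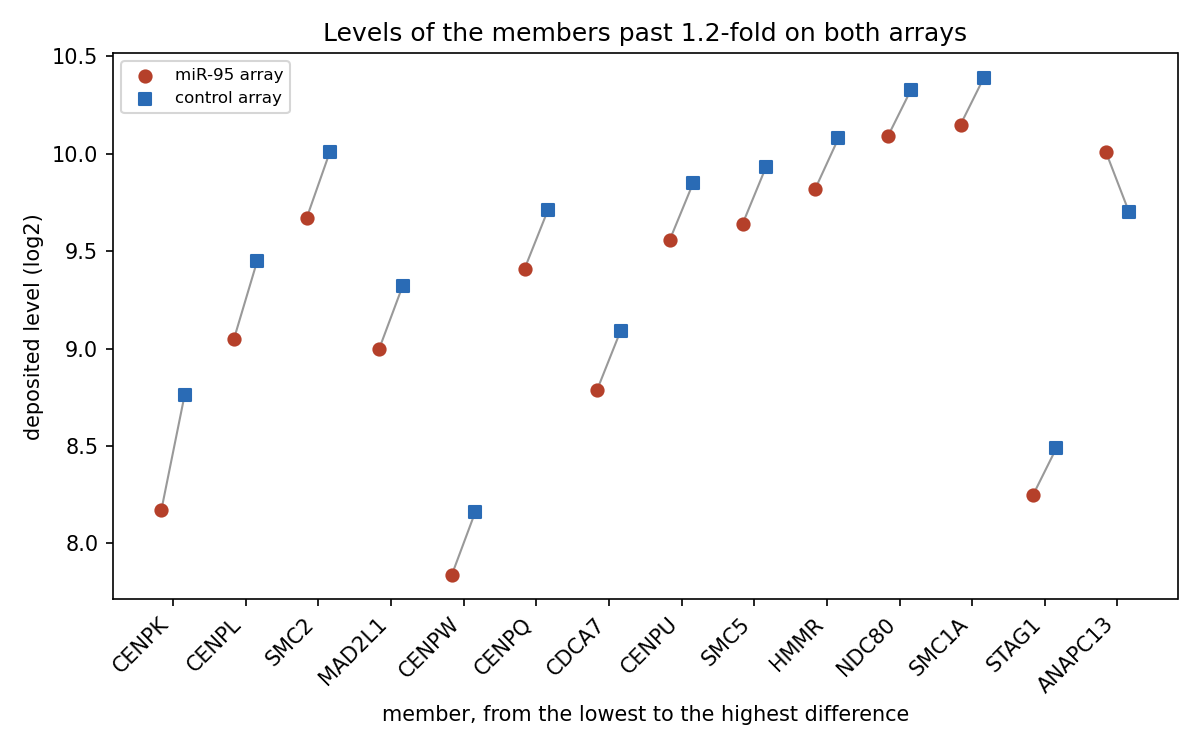
Deposited log2 level on the vertical axis of each of the 14 detected members past 1.2-fold, ordered on the horizontal axis from the lowest to the highest difference, with the miR-95 array as circles and the control array as squares to their right. In 13 genes, from CENPK to STAG1, the miR-95 value is the lower, and in ANAPC13 (10.01 with miR-95, 9.70 in the control) it is the higher.

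The microtubule-binding genes were lower together, with 4 of 4 measured members negative under each centring and a median of -0.215. NDC80, the subunit whose head contacts the microtubule, read 10.09 in miR-95 cells and 10.33 in control cells and was 1.21-fold lower. SKA3, of the complex that tracks microtubule ends with NDC80, read 10.68 in miR-95 cells and 10.90 in control cells, a difference of -0.255. Its partners SKA1 and SKA2 differed by -0.175 and -0.085. NDC80 was the only one of the 4 past 1.2-fold. NUF2, SPC24 and SPC25, the other NDC80 complex subunits, and the corona proteins CENPE and CENPF were not analysed here.

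Checkpoint genes were negative in 7 of 7 cases, but only 1 was past 1.2-fold and the median was -0.065. The count was 6 of 7 with the values as deposited and after loess or quantile centring, and 4 of 7 after adjustment for gene span. MAD2L1, which encodes MAD2, the protein that captures CDC20, had 9.00 in miR-95 cells and 9.32 in control cells and was 1.28-fold lower. TTK, the kinase MPS1 that starts checkpoint signalling, had 9.82 with miR-95 and 10.03 in the control, a difference of -0.245. The scaffold kinase BUB1 (10.20 with miR-95, 10.23 in the control), BUB1B, which encodes BUBR1 (10.48 with miR-95, 10.51 in the control), and MAD1L1, the MAD2 receptor at kinetochores (7.71 with miR-95, 7.74 in the control), each differed by -0.065. BUB3 differed by -0.075 and MAD2L1BP, the antagonist p31comet that helps take the checkpoint complex apart, by -0.025. Apart from MAD2L1 and TTK, the checkpoint genes therefore lay within the spread between probe sets.

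Anaphase-promoting complex genes showed no common direction. Of 13 detected members, 7 were negative and 6 positive, the median was -0.005, and it was 0.03 with the values as deposited. The subunits CDC23 and CDC26, which the name rule did not take in, differed by -0.045 and -0.035. ANAPC13, a small subunit that stabilises the complex, was the single member at least 1.2-fold higher (1.21-fold). The lowest were ANAPC10, a substrate receptor (8.30 in miR-95 cells, 8.46 in control cells, difference -0.195), ANAPC4 (-0.175) and ANAPC1, the largest scaffold subunit (-0.165). A probe set for the pseudogene ANAPC1P2 differed by -0.025, and signal shared between it and ANAPC1 was not tested. CDC20, the activator that the checkpoint holds, had 11.88 with miR-95 and 11.81 in the control, and CDC27 had 12.13 with miR-95 and 12.09 in the control. Their differences were 0.035 and 0.005. CDC16, ANAPC5, ANAPC7 and ANAPC11 were negative and ANAPC2, ANAPC15 and ANAPC16 positive, between -0.075 and 0.065. Of the 13, 8 were positive with the values as deposited, after loess and quantile centring and after adjustment for gene span.

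The targets of the APC/C and the protease that it frees also went both ways. ESPL1, which encodes separase, had 8.49 in miR-95 cells and 8.71 in control cells, a difference of -0.255. CCNB1, cyclin B1, had 9.71 with miR-95 and 9.82 in the control (-0.145), and CCNB2, cyclin B2, had 11.25 with miR-95 and 11.20 in the control (0.015). PTTG1, which encodes securin, lay below the detection rule at 7.01 with miR-95 and 6.83 in the control, as did the germline cyclin CCNB3 at 4.85 with miR-95 and 5.01 in the control. None of the 5 was past 1.2-fold.

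Every measured SMC gene was lower on the miR-95 array, and the 6 detected ones were negative under each centring and after adjustment for gene span. SMC proteins are long coiled-coil ATPases that form the arms of cohesin (SMC1A, SMC3), condensin (SMC2, SMC4) and the SMC5/6 repair complex. The 6 detected members had a median of -0.255, against -0.035 over all detected genes, of which 59.4% were negative. Of the 6, 3 were at least 1.2-fold lower, a limit passed by 8.45% of all detected genes. After adjustment for gene span SMC2 stood at -0.3, past the limit, while SMC5 at -0.25 and SMC1A at -0.21 were under it. SMC2 read 9.67 in miR-95 cells and 10.01 in control cells (1.30-fold lower), and its partner SMC4 read 10.75 with miR-95 and 10.93 in the control (-0.215). SMC5 read 9.64 with miR-95 and 9.93 in the control (1.25-fold lower), and SMC6 read 9.95 with miR-95 and 10.15 in the control (-0.235). SMC1A read 10.15 in miR-95 cells and 10.39 in control cells (1.21-fold lower), and SMC3 read 10.69 with miR-95 and 10.81 in the control (-0.155). In each of these 3 pairs both partners were lower, and the gap between partners was 0.09 to 0.16. The meiotic SMC1B was at 4.63 with miR-95 and 4.76 in the control, below the detection rule. The NCAP subunits of condensin were not analysed here.

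Among the other cohesin genes, STAG1, a subunit that holds the ring on DNA, read 8.25 in miR-95 cells and 8.49 in control cells and was 1.21-fold lower. Its paralog STAG2, which is used in separate cohesin complexes, read 10.31 with miR-95 and 10.35 in the control, a difference of -0.075. CDCA5, which encodes the cohesin protector sororin, also differed by -0.075. All 5 detected cohesin members were negative (median -0.155), and 4 of 5 were after adjustment for gene span. The kleisin subunit RAD21, which the name rule did not take in, is not among the 5 and differed by -0.085. The meiotic STAG3 lay below the detection rule (6.27 with miR-95, 6.32 in the control). Of 5 probe sets for STAG3-like copies, 4 were detected, with 2 negative and 2 positive differences from -0.165 for STAG3L3 to 0.045 for STAG3L4 and STAG3L5P-PVRIG2P-PILRB. These copies resemble each other in sequence, so their values are uncertain.

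Mitotic kinases did not move as a block. AURKB, the Aurora kinase of the chromosomal passenger complex, read 10.62 in miR-95 cells and 10.84 in control cells (-0.255), whereas AURKA, the Aurora kinase of spindle poles, read 10.01 with miR-95 and 9.96 in the control (0.015). CDCA8, which encodes the passenger subunit borealin, differed by -0.075. PLK1, the main mitotic polo kinase, had 12.06 with miR-95 and 11.98 in the control (0.045), and PLK4, which controls centriole duplication, had 9.03 with miR-95 and 9.22 in the control (-0.225). None was past 1.2-fold. AURKC was below the detection rule, with 7.28 in miR-95 cells and 7.31 in control cells. Of the polo kinases outside mitosis, PLK2 differed by -0.145 and PLK3 by 0.075, and PLK5 was not detected.

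NEK kinases were the only class of members whose median was positive with this centring (0.185), with 3 of 5 detected genes positive. NEK2, which separates centrosomes, read 9.37 with miR-95 and 9.12 in the control (0.215). NEK4 read 10.04 in miR-95 cells and 9.80 in control cells (0.205), and NEK6, a kinase of spindle formation, read 8.58 with miR-95 and 8.36 in the control (0.185). NEK7, the close relative of NEK6, went the other way at 8.98 with miR-95 and 9.16 in the control (-0.215). NEK9, which activates NEK6 and NEK7, differed by -0.025 and was above 0 with the values as deposited. NEK3, NEK5, NEK8, NEK10 and NEK11 were below the detection rule on both arrays, and over all 10 measured NEK genes the median was 0.08. None of the 10 was past 1.2-fold with this centring, but NEK4 stood at 0.28 after adjustment for gene span, past that limit.

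Spindle and cytokinesis genes were negative in 4 of 4 cases (median -0.17). HMMR, a hyaluronan receptor that also binds spindle microtubules, had 9.82 in miR-95 cells and 10.08 in control cells and was 1.23-fold lower. NUSAP1, which bundles spindle microtubules, had 11.60 with miR-95 and 11.77 in the control (-0.205). ECT2, the exchange factor that starts the cleavage furrow, differed by -0.135, and PRC1, which cross-links the central spindle, by -0.065. TPX2, ANLN, ASPM and DLGAP5 were not analysed here. TOP2A, the topoisomerase that untangles sister chromatids, stood against these genes at 11.51 in miR-95 cells and 11.22 in control cells. Its difference of 0.255 was just under the 1.2-fold limit of 0.263, and it was past the limit with the values as deposited. MKI67, the coat protein of mitotic chromosomes used as a proliferation marker, had 10.42 with miR-95 and 10.44 in the control (-0.055), and CDCA2, a phosphatase targeting subunit, differed by -0.195.

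The CDCA genes outside these complexes were negative in 4 of 4 cases, although CDCA4 was above 0 after quantile centring. CDCA7, a chromatin factor that acts with the helicase HELLS in DNA methylation, read 8.79 in miR-95 cells and 9.09 in control cells and was 1.26-fold lower. Its relative CDCA7L differed by -0.215, CDCA3 by -0.095 and CDCA4 by -0.045. MAD2L2, a polymerase and shieldin subunit related to MAD2, differed by -0.015, and the pseudogene CENPBD2P by 0.095. Among the 13 members below the detection rule, 7 were negative and 6 positive, from -0.195 to 0.145, and 0 were past 1.2-fold. Counted over all 94 members the median was also -0.075, with 68 negative.

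**Figure D3:**
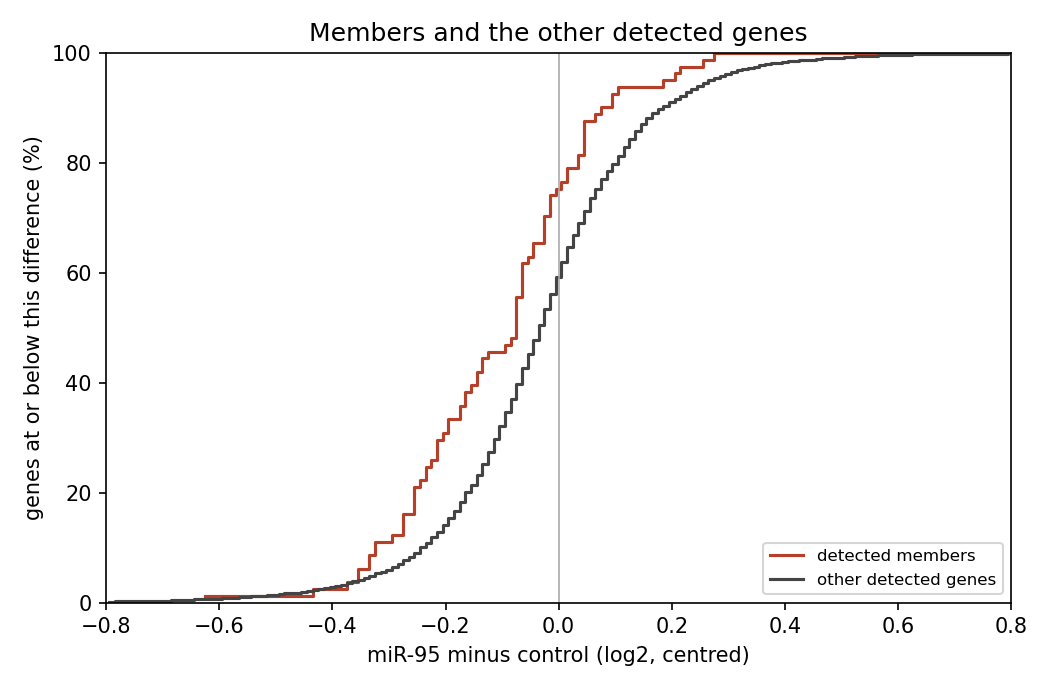
Percentage of genes (vertical axis) at or below each miR-95 minus control difference (horizontal axis, log2, centred), for the 81 detected members and the other 7000 detected genes, of which those between -0.8 and 0.8 are drawn. The members' curve lies left of the other genes over most of the range, with 75.3% of members below 0, and the curves meet on the far left, where few members lie.

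Genes of the same machinery that the name rule left out gave a similar picture. Of 45 listed, 35 were measured and 34 detected. With this centring 28 were negative (82.4%) and 6 positive, with a median of -0.14, against 59.4% negative and a median of -0.035 over all detected genes. With this centring 9 were at least 1.2-fold lower (26.5%, background 8.45%) and 0 were 1.2-fold higher. Among them ZWINT, OIP5, ESCO1, KNTC1 and CKAP2 were under the limit with the values as deposited, where the background was 6.07%. The count was not repeated after adjustment for gene span. SPDL1, which encodes the dynein adaptor spindly at kinetochores, read 9.72 in miR-95 cells and 10.08 in control cells (1.31-fold lower). HASPIN, the kinase that marks the inner centromere for the passenger complex, read 8.92 with miR-95 and 9.27 in the control (1.31-fold lower). MIS18A and OIP5, both of the Mis18 complex that licenses CENP-A loading, were 1.27-fold and 1.23-fold lower, while the CENP-A chaperone HJURP differed by -0.055. The share at least 1.2-fold lower was above the 16.0% of the members with this centring. Only SPDL1, HASPIN, MIS18A and KIF18A of the 34 stayed past the limit with the values as deposited, beside 11.1% of the members. The ranking of this list above the members is therefore given for this centring only. The list, like the members, was drawn up with earlier results of these data known.

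The outer kinetochore genes ZWINT and KNTC1 were 1.23-fold and 1.22-fold lower, and KNL1, the platform for BUB proteins, differed by 0.165 (10.68 with miR-95, 10.48 in the control). Among cohesin regulators, listed together with the subunit RAD21, 7 of 7 detected were negative, and 6 of 7 after adjustment for gene span. ESCO1, an acetyltransferase of SMC3, was 1.23-fold lower, and RAD21, the cohesin kleisin cut by separase, differed by -0.085. The kinesin KIF18A and the spindle protein CKAP2 were 1.27-fold and 1.21-fold lower. CDK1, the kinase of mitotic entry, had 10.72 in miR-95 cells and 10.85 in control cells (-0.165). The partners of the APC/C, listed together with its subunits CDC23 and CDC26, went both ways around a median of -0.04. They ranged from the inhibitor FBXO5 at -0.225 to the ubiquitin-conjugating enzyme UBE2S at 0.185. None of these genes was past 1.2-fold.

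Gene length moved with these differences. Over the 81 detected members, the difference declined with genomic span (Spearman's rho = -0.346), and over all 7081 detected genes rho was -0.238. All points come from the same pair of arrays, and genes are not independent replicates. The 40 members that span more than 29.4 kb had a median of -0.185 with 35 negative, while the 3539 detected genes beyond that span had a median of -0.065 with 68.5% negative. The 41 members at or below that span had a median of -0.045 with 26 negative (63.4%), beside -0.005 and 50.3% for the 3542 detected genes of that range. In both ranges the members' median was below that of all detected genes, members included, but genes within a range still differed widely in span. After each difference was set against the median of genes in the same of 10 equal groups by gene span, 61.7% of members and 48.5% of all detected genes were negative, and 8 members in place of 13 were at least 1.2-fold lower, against 5.55% of all detected genes. CENPK then stood at -0.55, under 1.5-fold. The part of gene length in these results was not tested further.

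**Figure D4:**
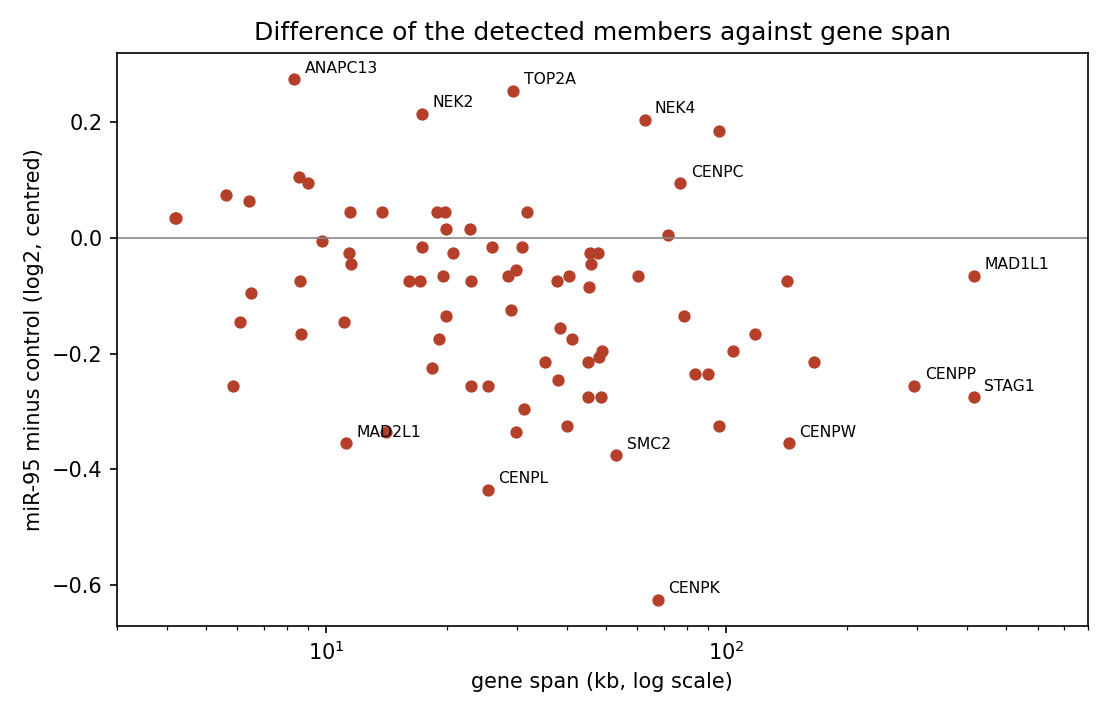
Difference of the 81 detected members (vertical axis, miR-95 minus control, log2, centred) against the genomic span of the gene in kb (horizontal axis, log scale), 1 point per gene. Points drift downwards to the right, with ANAPC13 and TOP2A at the top and CENPK (-0.625) at the bottom, while short genes such as MAD2L1 (11.2 kb) also lie low.

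A short sequence element was more frequent in the promoters of members than in those of all detected genes, although most searched members lacked it. The name rule did not read promoters, but it took in many genes transcribed mainly in late S, G2 and M phase. The cell cycle genes homology region (CHR) is a short element through which the DREAM and MuvB complexes time transcription to G2 and M phase. It was searched as TTTGAA or TTCGAA on both strands, in windows from 250 bases before to 50 after the RefSeq gene start (first window listed per gene), which 79 of the 94 members had. Among the 68 detected members with a window, 31 (45.6%) held the letters, against 11.1% of 5846 detected genes and 16.6% of all 27305 genes with a window. Within 50 bases of the start the shares were 35.3% of members and 3.42% of detected genes. The CCAAT box, searched as CCAAT on both strands, was in 51.5% of members and 37.6% of detected genes. An E2F motif, searched as TTTGGCGC or TTTCCCGC on both strands, was in 8.82% of members and 4.05% of detected genes. The 3 searches share no letters that would make a match to one a match to another.

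Members with and without a CHR near the start overlapped widely in their differences. The 24 with the letters within 50 bases of the start had a median of -0.13, with 21 negative and a range from -0.375 to 0.105. The 44 without had a median of -0.065, with 30 negative and a range from -0.625 to 0.275. Among all detected genes 59.4% were negative. The differences of all detected genes were not split by a CHR near the start, so this gap has no background value. Split by the letters anywhere in the window, the medians were closer, -0.095 with and -0.075 without, beside -0.065 and -0.035 over all detected genes. For the CCAAT box the order was the other way among members, -0.065 with and -0.155 without, beside -0.045 and -0.035 over all detected genes. By class, windows with a CHR were 4 of 4 among the spindle and cytokinesis genes and 2 of 2 in condensin. They were 2 of 2 for MKI67 and TOP2A and 3 of 4 for the Aurora and polo kinases with borealin. SMC5 and SMC6 held none, the centromere genes held it in 5 of 12, cohesin in 2 of 5 and the APC/C in 3 of 13. Elsewhere it was in 3 of 4 NDC80 and SKA genes, 3 of 5 checkpoint genes and 2 of 3 cyclin B and separase genes. The other CDCA genes held it in 2 of 4 and the NEK kinases in 0 of 4. A match is a description of letters, not evidence of binding.

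Promoter windows of 4 members are shown to set this element beside the measured values, 5′ to 3′ on the gene's strand (GRCh38.p14, RefSeq), with CHR and CCAAT letters in either orientation in capitals. CENPK, the member with the lowest difference, had no CHR and 3 CCAAT boxes. SMC2 (1.30-fold lower) had a CHR that begins 3 bases before the start, and MAD2L1 (1.28-fold lower) had one 24 bases after it. PLK1, whose difference was 0.045, had a CHR 29 bases before the start and a CCAAT box 73 bases before it.
CENPK promoter, chr5:65563119-65563418, minus strand: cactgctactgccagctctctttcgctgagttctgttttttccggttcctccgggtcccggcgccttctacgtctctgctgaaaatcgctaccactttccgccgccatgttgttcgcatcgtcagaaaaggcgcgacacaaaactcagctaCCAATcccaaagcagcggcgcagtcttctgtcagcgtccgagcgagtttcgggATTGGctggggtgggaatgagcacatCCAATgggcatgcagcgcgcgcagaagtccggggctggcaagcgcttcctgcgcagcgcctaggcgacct
SMC2 promoter, chr9:104094059-104094358, plus strand: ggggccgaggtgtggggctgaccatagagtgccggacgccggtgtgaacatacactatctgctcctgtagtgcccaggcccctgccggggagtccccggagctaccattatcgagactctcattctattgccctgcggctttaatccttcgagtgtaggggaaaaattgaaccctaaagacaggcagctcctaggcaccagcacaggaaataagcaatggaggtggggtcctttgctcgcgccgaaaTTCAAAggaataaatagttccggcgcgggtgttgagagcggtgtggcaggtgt
MAD2L1 promoter, chr4:120066799-120067098, minus strand: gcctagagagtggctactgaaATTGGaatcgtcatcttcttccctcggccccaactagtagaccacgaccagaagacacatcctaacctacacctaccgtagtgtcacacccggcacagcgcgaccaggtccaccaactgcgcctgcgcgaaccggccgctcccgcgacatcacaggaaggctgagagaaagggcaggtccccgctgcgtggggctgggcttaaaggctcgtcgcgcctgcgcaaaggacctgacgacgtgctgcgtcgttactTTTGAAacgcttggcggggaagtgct
PLK1 promoter, chr16:23678639-23678938, plus strand: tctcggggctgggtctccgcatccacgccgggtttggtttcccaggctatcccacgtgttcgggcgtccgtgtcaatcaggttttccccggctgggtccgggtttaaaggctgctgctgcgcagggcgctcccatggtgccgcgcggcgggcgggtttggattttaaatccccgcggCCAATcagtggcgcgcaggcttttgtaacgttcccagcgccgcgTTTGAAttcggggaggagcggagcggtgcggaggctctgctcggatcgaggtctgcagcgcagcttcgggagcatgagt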

How the data were processed

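Total RNA from PC3 cells overexpressing miR-95 and from PC3 cells overexpressing a control microRNA was hybridised to 1 Affymetrix gene array each, per the labels' protocols. The authors deposited log2 expression values for 23641 probe sets, with the scale read from the values (1.79 to 13.83 for miR-95, 1.94 to 13.84 for control). Per the submitters' processing notes, the tool was Affymetrix Expression Console 1.2. How values were summarised, background-corrected and scaled, and on which build, was not given in the sources used here. Percentiles 1 to 99 of the columns lay within 0.04 of each other, as after a common scaling, which hides a global shift.

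A single symbol was annotated for 14088 probe sets and several for none, and those 14088 matched the RefSeq table (GRCh38.p14) by Entrez identifier. Probe sets of a gene were averaged, each array was centred on its median over genes, and differences are miR-95 minus control. Genes were counted past 1.2-fold and 1.5-fold. With 1 array per group no test was possible, and the number of arrays limits the precision. Centring and the 1.5-fold count were tested on simulated data with known shifts larger than 1.5-fold. The 1.2-fold limit and the steps for gene span, classes and motifs were not tested in this way. Members, lists, classes and motifs were chosen with earlier results of these data known. The classes for members outside the complexes were set after their values were seen. In each class, detected members past 1.2-fold and the largest differences each way are named, with others by value or range. The genes left out by the name rule were named past 1.2-fold, at the largest differences or for their role. KNL1, HJURP, RAD21, CDK1, CDC23, CDC26 and ITGB3BP were named for their role after their values were seen. Python 3.11.15, pandas 2.3.3, scipy 1.17.1 and statsmodels 0.14.6 were used. The alternatives were no centring, loess (span 0.4) or quantile centring, other filters on dim genes, the brightest probe set, an offset of 32 on the linear scale, adjustment for gene span and, added after seeing the data, the members of the complexes alone.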

Additional observations from a re-analysis of the deposited data

How the results depend on the processing

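The members' median stayed negative under each of the 11 alternatives, from -0.04 with the values as deposited to -0.08 with the complexes alone, an alternative chosen after seeing the data. The share of negative members ranged from 61.7% (gene span) to 76.5% (the complexes alone), and that of all detected genes from 48.0% to 61.9%. At least 1.2-fold lower were 9 members with the values as deposited, loess or quantile centring and 8 after adjustment for gene span, while the share of all detected genes was 6.07%, 6.38%, 6.27% and 5.55% in that order. Under these same 4 alternatives 2 members were at least 1.2-fold higher, beside 6.69% to 7.09% of all detected genes. The 2 were ANAPC13 and TOP2A, except after adjustment for gene span, where they were TOP2A and NEK4. The count at least 1.5-fold lower was 0 with the filter at the 75th percentile, which CENPK did not pass, with an offset of 32, and after adjustment for gene span. Of the 14 members past 1.2-fold, 0 changed sign and 7 were under the limit in at least 1 alternative. These were STAG1 in 5, NDC80, SMC1A and HMMR in 4 each, and CENPU, SMC5 and ANAPC13 in 1 each. Of the 16 class medians, 4 changed sign, all between -0.055 and 0.045: the APC/C, the MKI67, TOP2A and CDCA2 group, the STAG3-like copies and the genes matched by name only. No paired analysis was possible because each group holds 1 array. Signal above background could not be judged, as no detection values were used here.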

Other observations

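Several members lie head to head with another gene, on opposite strands with gene starts at most 1000 bases apart in the RefSeq promoter table (GRCh38.p14). Such pairs were measured for 24 members and both genes were detected in 18. The 18 neighbours had a median difference of -0.095 (12 negative) beside -0.15 for the members, and 13 pairs had the same sign. Among all detected genes 59.4% were negative, so many unlinked pairs would also share a sign. Whether 13 is more than such pairs would give was not tested. NDC80 and METTL4, an RNA and DNA methyltransferase gene 52 bases away, differed by -0.275 and -0.285, with METTL4 at 10.49 in miR-95 cells and 10.74 in control cells. CENPQ and MMUT, the methylmalonyl-CoA mutase gene, differed by -0.335 and -0.29, and NUSAP1 and OIP5 by -0.205 and -0.295. CENPK and the peptidyl-prolyl isomerase gene PPWD1, 128 bases apart, differed by -0.625 and -0.195. Other pairs went apart. SMC4 differed by -0.215 and IFT80, a cilium transport gene, by 0.165. CDCA5 differed by -0.075 and the zinc finger gene ZFPL1 by 0.255, CDCA3 by -0.095 and the deubiquitinase gene USP5 by 0.355, and ANAPC13 by 0.275 and the centrosomal gene CEP63 by -0.095. These pairs were looked for after the members' values were seen, and they are given as values only.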
